A study of Homo sapiens with 12 samples.

Results

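The 10 genes described here belong to the ATF4 pathway and to the unfolded protein response: ATF3, ATF4, DDIT3, TRIB3, ASNS, CHAC1, SESN2, XBP1, HERPUD1 and DDIT4. They were found by the gene symbol of each probe set, and 17 of the 54613 probe sets of the array carried 1 of these symbols. The 10 genes are part of 19775 genes that had a probe set of their own. HD-MB03 cells, a human group 3 medulloblastoma line with an amplified MYC gene, were grown in RPMI medium with fetal calf serum. They received 1 µM entinostat, an inhibitor of class I histone deacetylases, or the solvent DMSO, which the labels also call untreated, for 24 h or 48 h. Each of the 4 groups had 3 biological replicates, and the RNA of every replicate was measured on a separate Affymetrix U133 Plus 2.0 array, which gave 12 arrays. Every group is the same cell line, so the values describe 1 tumour line in culture. Each array measured the RNA of many cells, so a change in every cell and a change in the share of cells that carry an mRNA cannot be told apart.

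Cells that lack amino acids or that collect unfolded proteins in the endoplasmic reticulum (ER) phosphorylate the initiation factor eIF2, which slows translation in general and raises translation of ATF4. The ATF4 protein then switches on genes of amino acid supply, redox balance and, under lasting stress, cell death. This is the integrated stress response. In the ER, the kinase PERK feeds into the same route, while the sensors IRE1 and ATF6 act through spliced XBP1 and cleaved ATF6 to raise chaperones and degradation factors. Together these arms are the unfolded protein response. The array reads mRNA, so it shows neither the translation of ATF4 nor the splicing of XBP1.

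A pair of short promoter motifs is tied to these arms, and the stretches that hold them are shown first because the members can be sorted by them. ATF4 binds, with C/EBP proteins, composite elements that contain the core TGATGNAA. ATF6 binds the ER stress element, which is CCAAT followed after 9 bases by CCACG. Both were searched on both strands in RefSeq promoter windows of GRCh38.p14 that run from 250 bases before to 50 bases after a transcript start. The 10 genes had 17 such windows. The core was found in the windows of 4 of the 10 genes, ASNS, CHAC1, HERPUD1 and ATF3, against 1217 of 27305 genes in the whole table (4.46%). In the stretches below, capitals mark the core, either as written or as its reverse complement, and each is read along the strand of the gene.
ASNS, chr7:97872449-97872496, minus strand, core 68 bases before 1 of its 2 starts: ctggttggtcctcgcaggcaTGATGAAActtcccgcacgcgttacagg
CHAC1, chr15:40953242-40953289, plus strand, core 209 bases before the start: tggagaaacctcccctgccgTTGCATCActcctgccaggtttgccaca
HERPUD1, chr16:56931946-56931993, plus strand, core 176 bases before the start: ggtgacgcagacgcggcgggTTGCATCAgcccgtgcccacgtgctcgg
ATF3, chr1:212565196-212565243, plus strand, core 191 bases before 1 of its 2 starts: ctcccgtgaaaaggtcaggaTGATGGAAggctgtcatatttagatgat

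The ER stress element was found in the windows of 25 of the 27305 genes (0.0916%). XBP1 was the only one of the 10 genes among them. HSPA5, which encodes the ER chaperone BiP, and CRELD2, an ER protein with foldase activity, are shown beside it as examples from the pathway lists used below. Of the 127 genes on these lists that had a window, 8 carried the element (CALR, CANX, CRELD2, ERO1B, HSP90B1, HSPA5, PDIA6 and SERP1), and 9 carried the core (CEBPG, CREB3L2, JDP2, PPP1R15B, SLC1A4, SLC1A5, SLC3A2, SLC7A1 and TSC2). Capitals mark its outer parts.
XBP1, chr22:28800583-28800641, minus strand, element 52 bases before 1 of its 2 starts: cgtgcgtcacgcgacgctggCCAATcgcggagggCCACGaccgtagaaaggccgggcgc
HSPA5, chr9:125241371-125241429, minus strand, element 66 bases before the start: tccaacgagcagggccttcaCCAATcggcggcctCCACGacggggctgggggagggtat
CRELD2, chr22:49918534-49918592, plus strand, element 80 bases before the start: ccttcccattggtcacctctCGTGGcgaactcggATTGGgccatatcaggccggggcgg

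In the windows of ATF4, DDIT3, TRIB3, SESN2 and DDIT4 neither set of letters was found. A match is a description of the sequence and says nothing about binding in these cells. The plot of match positions shows where the matches lie.

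**Figure D1:**
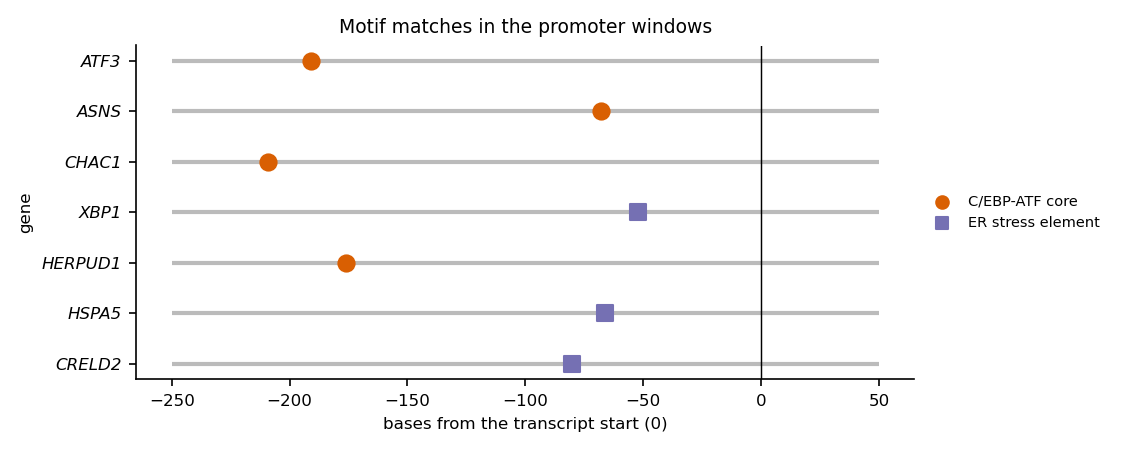
Positions of motif matches in the promoter windows, in bases from the transcript start at 0; circles are the C/EBP-ATF core and squares the ER stress element, and grey lines are the windows. The core lies 68 bases before the start in ASNS and from 176 to 209 bases before it in HERPUD1, ATF3 and CHAC1, and the ER stress element lies 52 to 80 bases before the start in XBP1, HSPA5 and CRELD2.

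The deposited values are normalized intensities on a linear scale, and fold changes were taken on their log2. Medians of the arrays ranged from 80.6 to 81.8, and no value was below 36.7, so a background level is part of every value and shortens the fold changes of dim probe sets. The cell line label was checked against markers. MYC had group means between 11260 and 13000 and OTX2, a group 3 transcription factor, between 5618 and 6995, and the retinal gene NRL, often expressed in group 3 tumours, between 858 and 2189. Of 9 markers of group 3 tumours the dimmest, EYS, was at 45.8 on average, and NPR3 and EOMES were below 80 in all groups. Entinostat lowered 3 of the 9 after 24 h (IMPG2, GABRA5 and OTX2) and 3 after 48 h (IMPG2, GABRA5 and CRX) and raised MYC after 48 h by 0.17 on the log2 scale, and the median of the 9 was -0.21 and then -0.15. The leukocyte gene PTPRC stayed between 52.4 and 57.7. Of 11 measured markers of leukocytes, endothelium and glia, 2 changed under entinostat. The endothelial KDR was called higher at both times, with a rise of 1.04 on the log2 scale after 24 h. The glial MBP fell by 0.44 after 48 h. As a measure of RNA quality, the 5′ control of GAPDH was subtracted from its 3′ control on the log2 scale and compared between the treatments by a two-sided exact permutation test (3 arrays against 3), with p = 0.6 at the earlier time and p = 0.3 at the later. The same exact test on ACTB had p = 1.0 and p = 0.1, and the latter, from the arrays of 48 h, is the lowest value this design can reach. Its part in the results at 48 h was not tested.

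Entinostat raised ATF3, ATF4, ASNS and SESN2 at both times and lowered XBP1 at both times. DDIT4 and HERPUD1 rose at 24 h alone, TRIB3 rose at 48 h alone, and DDIT3 and CHAC1 passed the test at neither time. In probe sets, 9 of the 17 had an adjusted p under 0.05 from limma at 24 h, 8 of them higher and 1 lower, beside 25.2% of all probe sets. At 48 h it was again 9 of 17, 8 higher and 1 lower, beside 26.1% of all probe sets. Most probe sets of the array were dim, and the shares of all genes given next take in dim genes too. Of the 17993 probe sets with a mean log2 of at least 7, tested on their own, 4666 were higher and 5131 lower at 24 h. At 48 h it was 4668 and 5539, so larger shares were called than over the array. The 17993 hold 11 of the 17. Counted by gene, each read from its brightest probe set on average, 6 of 10 were higher and 1 lower at 24 h, where 18.2% of all genes were higher and 15.0% lower. At 48 h, 5 of 10 were higher and 1 lower, where 17.3% of all genes were higher and 16.6% lower. The median log2 fold change of the 10 genes was 0.40 at 24 h and 0.24 at 48 h, against -0.02 at both times over all genes. The 10 genes were chosen with earlier results of these data known, so their counts and medians are a description. The plot of intensities by array gives the values behind these counts.

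**Figure D2:**
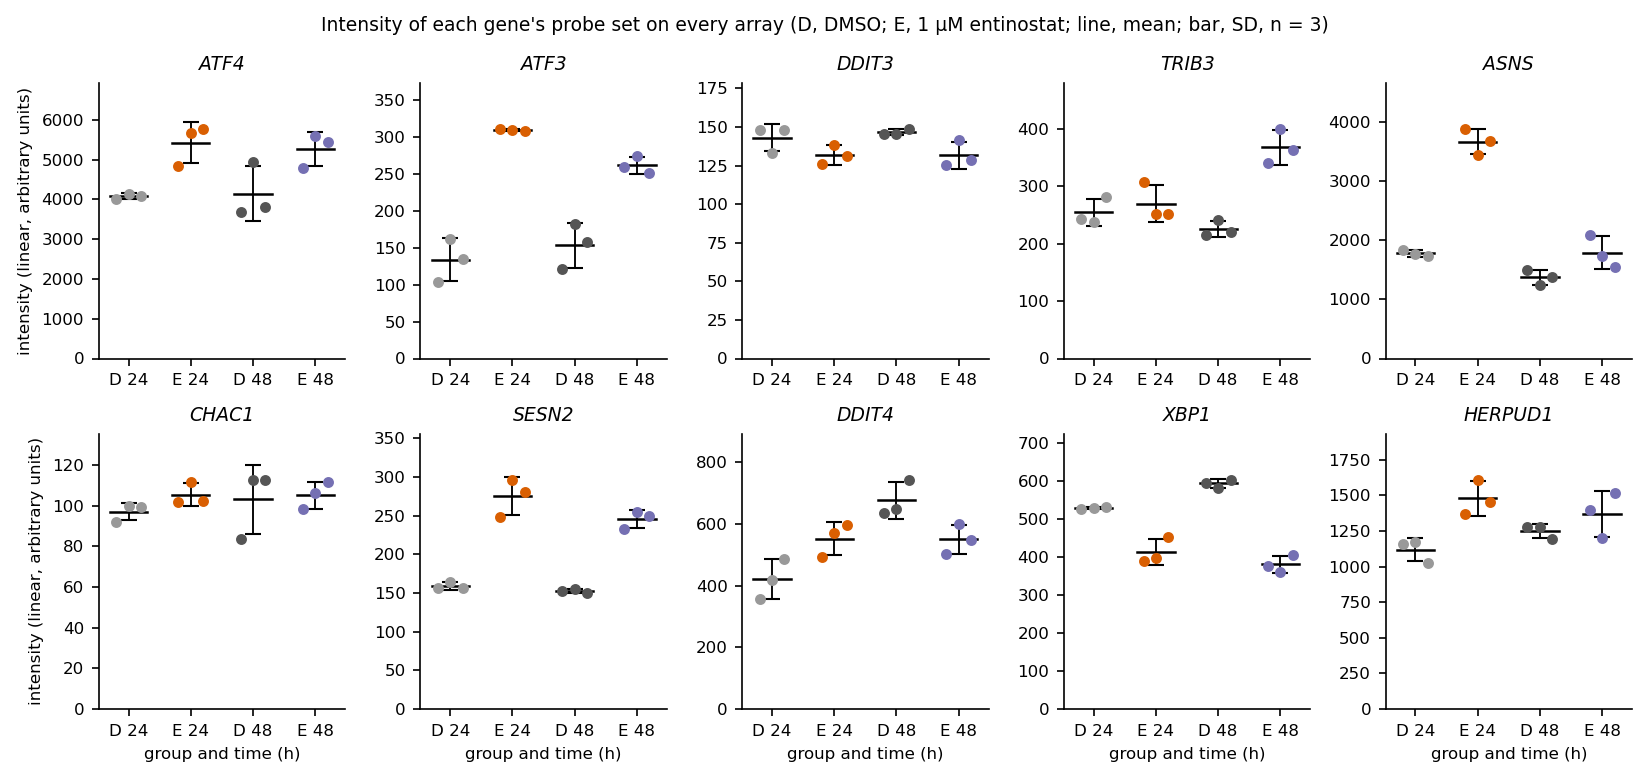
Linear intensity (arbitrary units) of each gene's probe set of the highest mean on all 12 arrays; D is DMSO and E is 1 µM entinostat, 24 and 48 are hours, points are arrays, lines are means and bars are SD (n = 3). The 3 entinostat arrays of ATF3 at 24 h lie between 307 and 310, above all DMSO arrays, and those of XBP1 lie below all DMSO arrays at both times.

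ATF4 (chr22:39520559-39522686), the transcription factor at the centre of the pathway, was measured by 1 probe set. Its intensities in DMSO at 24 h were 4002, 4146 and 4087, and with entinostat 4830, 5662 and 5771. At 48 h they were 3690, 4932 and 3806 in DMSO and 4789, 5595 and 5439 with entinostat. The groups stood apart at 24 h and overlapped at 48 h, where the second DMSO array was above the first entinostat array. On the log2 scale ATF4 rose by 0.41 after 24 h (standard error 0.11, adjusted p = 0.0133), which is 1.33-fold, and by 0.36 after 48 h (adjusted p = 0.0256), which is 1.28-fold. These calls were close to the threshold. In 12 refits, each made without 1 array, the one at 24 h failed in 2, without entinostat replicate 2 or 3, and the one at 48 h in 4. The 4 were without DMSO replicate 1 or 3 or entinostat replicate 2 or 3 at 48 h, and the log2 fold change in the 12 refits ran from 0.28 to 0.49.

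Upstream of ATF4, 17 genes of the eIF2 kinases, their regulators, eIF2B and the eIF2 phosphatase were measured. After 24 h 4 of them rose and 3 fell, and after 48 h 3 rose and 3 fell. These counts and those of the lists that follow stand beside the shares of all genes given above, between 15.0% and 18.2% in either direction. EIF2AK3, which encodes PERK, had log2 fold changes of 1.10 and 1.04 at the 2 times. Its intensities were 337, 273 and 338 in DMSO at 24 h and 668, 683 and 670 with entinostat, and at 48 h 398, 326 and 402 against 723, 773 and 813. EIF2AK4, the amino acid sensor GCN2, fell by 0.43 and 0.49 on the log2 scale, and EIF2AK2, the double-stranded RNA sensor PKR, fell by 0.45 and 0.37. The dimmer probe set of EIF2AK4 had 0.02 without a call at 24 h and -0.47, which was called, at 48 h. EIF2AK1, the heme-regulated kinase HRI, had 0.33 at 24 h, a call lost in 6 of 12 refits (each of those that left out an array of 24 h), and -0.14 at 48 h, which was not called. The second probe set of EIF2AK1 differed, with 0.04 and no call at 24 h and a fall of -0.24 at 48 h. PPP1R15B, the constitutive subunit that guides the phosphatase to eIF2, rose by 0.53 and 0.82. PPP1R15A (GADD34), the inducible subunit and a known ATF4 target, had -0.01 and 0.10, neither of them called, with intensities between 91.2 and 107 on all arrays. Its second, dimmer probe set had 0.03 and -0.14 without a call. In probe sets so dim a change may go unseen.

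ATF3, ATF4's early target and a bZIP repressor, had the largest treatment effect of the 10 genes at 24 h. The gene lies at chr1:212565407-212620777. Its intensities in DMSO at 24 h were 104, 162 and 134, and with entinostat 310, 309 and 307. At 48 h the DMSO arrays had 121, 182 and 157 and the entinostat arrays 258, 273 and 251. The groups did not overlap at either time, and the DMSO arrays were spread more widely than the entinostat arrays. Its rise on the log2 scale was 1.23 after 24 h (standard error 0.15, adjusted p = 6.17e-05) and 0.79 after 48 h (adjusted p = 0.00181), and all 12 refits kept both calls. The other 2 probe sets of ATF3 moved less. The brighter of them rose by 0.54 and 0.29, and the dimmer, with intensities from 56.3 to 101, had 0.16 and 0.22 without a call. Entinostat was lower at 48 h than at 24 h on all arrays, but neither this change (log2 fold change -0.24, adjusted p = 0.451) nor the interaction of treatment and time (-0.45, adjusted p = 0.426) passed the test.

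DDIT3 (chr12:57516588-57520517) encodes CHOP, the bZIP factor that ATF4 raises under lasting ER stress. Its intensities were 148, 133.2 and 148 in DMSO at 24 h and 126, 139 and 131 with entinostat, and the groups overlapped. At 48 h they were 145, 146 and 149 in DMSO and 125, 142 and 129 with entinostat, which placed all 3 treated arrays below the controls. Its log2 fold change was -0.12 after 24 h (95% confidence interval -0.26 to 0.02, adjusted p = 0.227) and -0.15 after 48 h (-0.29 to -0.02, adjusted p = 0.105). A call at 48 h was gained in 1 of 12 refits, without entinostat replicate 2 of that time. The probe set is the only one DDIT3 has.

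TRIB3 (chr20:380760-397559), a pseudokinase that ATF4 and CHOP induce and that dampens their activity, rose late. In DMSO at 24 h its intensities were 243, 237 and 282, and with entinostat 307, 251 and 251, with overlap. At 48 h the values were 215, 241 and 220 in DMSO and 339, 399 and 363 with entinostat, and the groups stood well apart. After 24 h the log2 fold change was 0.08 (adjusted p = 0.619), and after 48 h it was 0.70 (standard error 0.10, adjusted p = 0.000118). Its dimmer probe set had 0.12 without a call at 24 h and 0.32 at 48 h (adjusted p = 0.00337). The interaction had a log2 value of 0.62 (adjusted p = 0.0507), just above the threshold of 0.05. It was called in 5 of 10 other settings, and in 1 of 12 refits, without entinostat replicate 1 at 24 h. Among entinostat arrays alone, TRIB3 was higher at the later time by 0.45 on the log2 scale (adjusted p = 0.0144), a call that 9 of 12 refits kept, all but those without entinostat replicate 2 or 3 at 24 h or entinostat replicate 2 at 48 h.

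The bZIP proteins that pair or compete with ATF4 and CHOP changed in both directions. Of 15 measured, 7 rose and 2 fell after 24 h, and 7 rose and 3 fell after 48 h, with a median log2 fold change of 0.32 and then -0.03. CEBPB, the partner of ATF4 and CHOP at C/EBP-ATF elements, rose by 1.07 and 1.42, from intensities of 451, 390 and 390 to 840, 893 and 844 at 24 h and from 376, 405 and 356 to 949, 1057 and 1030 at 48 h. BATF3, a partner of JUN proteins, rose by 1.12 and 1.21. ATF5, a close relative of ATF4, fell by 0.65 and 0.73 on the log2 scale in its brightest probe set, while 2 of its 4 probe sets were called at neither time. CEBPG, the C/EBP protein that forms heterodimers with ATF4, fell by 0.39 and 0.56.

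ASNS (chr7:97851677-97928441), the enzyme that makes asparagine and a classic target of ATF4, was the only one of the 10 whose treatment effect differed between the times by the interaction test. Its intensities in DMSO at 24 h were 1834, 1765 and 1724, and with entinostat 3879, 3445 and 3674. At 48 h they were 1501, 1249 and 1376 in DMSO and 2087, 1731 and 1552 with entinostat. The treated arrays were above the controls at both times, but at 48 h the lowest of them was close to the highest control. ASNS rose 2.06-fold after 24 h, or by 1.05 on the log2 scale (standard error 0.10, adjusted p = 6.64e-06). After 48 h the rise was 1.30-fold, or 0.37 on the log2 scale (adjusted p = 0.0136). The call at 48 h was lost without DMSO replicate 2 or entinostat replicate 1 of that time. Between the entinostat groups, ASNS was lower at 48 h by a log2 fold change of -1.04 (adjusted p = 0.000163), and all 12 refits kept this call. Between the DMSO groups it had -0.37 (adjusted p = 0.146). The interaction was -0.67 (95% confidence interval -0.98 to -0.37, adjusted p = 0.0431), and only the refit without entinostat replicate 1 at 48 h, of 12, kept it under 0.05. Of all probe sets, 1.21% had an interaction under that threshold, and this one was the only one of the 17. Of the 17993 with a mean log2 of at least 7, tested on their own, 446 had it called higher and 590 lower. The second probe set of ASNS had intensities between 46.5 and 57.0 on all arrays, with 0.06 at 24 h and 0.07 at 48 h, neither called.

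The amino acid genes around ASNS changed in both directions. Of 19 measured ATF4 targets of amino acid synthesis and transport, 7 rose and 3 fell after 24 h, and 6 rose and 5 fell after 48 h. Split after their values were seen, the 9 transporters held 6 of the rises and 1 of the falls at 24 h, and 5 rises and no fall at 48 h. The 10 enzymes held 1 rise and 2 falls at 24 h, and 1 rise and 5 falls at 48 h. SLC1A4, a transporter of alanine, serine and cysteine, was like ASNS in time, with 1.04 at 24 h and 0.21 at 48 h (adjusted p = 0.151), and its interaction was -0.83 (adjusted p = 0.0174). Its 4 other probe sets differed. In 1 of them the interaction was called too (-0.66, adjusted p = 0.0104), with rises called at both times (0.99 and 0.33), and in the other 3 it was not, with 0.51, 0.37 and -0.04 at 24 h. The intensities of the brightest at 24 h were 149, 165 and 144 in DMSO and 290, 334 and 315 with entinostat, and at 48 h 152, 146 and 156 against 147, 191 and 190. The interaction call was lost in 1 of 12 refits, without DMSO replicate 3 at 48 h. CTH, which makes cysteine from cystathionine, rose by 0.59 and 0.95, whereas CBS, which makes cystathionine, fell by 0.57 (lost in 4 of 12 refits, without DMSO replicate 1 or 3 or entinostat replicate 1 or 2 at 24 h) and 0.60. ALDH18A1, an enzyme of proline synthesis, had -0.27 at 24 h without a call and fell by 0.70 at 48 h, while its other probe set was called lower at both times (-0.19 and -0.44).

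Of the other ATF4 and CHOP targets, 19 were measured, and 6 rose and 4 fell after 24 h, 5 and 4 after 48 h. VLDLR, a lipoprotein receptor, rose by 1.53 and 2.47, the latter the largest value of any gene on these lists at 48 h. Its intensities were 273, 227 and 165 in DMSO and 630, 638 and 619 with entinostat at 24 h, and 174, 174 and 143 against 788, 1018 and 905 at 48 h. CEBPB stands on this list too. STC2, a secreted glycoprotein of the stress response, fell by 0.64 and 0.94, and TNFRSF10B, the death receptor that CHOP can raise, fell by 0.72 and 0.81.

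CHAC1 (chr15:40953471-40956512) breaks down glutathione and is induced by ATF4, ATF3 and CHOP. In DMSO its intensities were 92.1, 99.7 and 99.4 at 24 h and 83.6, 113 and 113 at 48 h, and with entinostat 102, 112 and 102 and then 98.2, 106 and 111. The values were dim on all arrays, the groups overlapped at 48 h, and DMSO arrays at 48 h were the most widely spread. Its log2 fold change was 0.12 after 24 h (95% confidence interval -0.11 to 0.34, adjusted p = 0.487) and 0.04 after 48 h (-0.18 to 0.27, adjusted p = 0.836). In so dim a probe set a change may go unseen. Of 8 genes of glutathione metabolism and the tribbles family, 2 rose and 1 fell after 24 h, and 3 rose and 1 fell after 48 h. GCLC, the catalytic subunit of the enzyme that starts glutathione synthesis, rose by 0.66 and 0.85, and GGT7, of the gamma-glutamyltransferase family, by 0.58 and 0.53. TRIB2, the relative of TRIB3, went the other way and fell by 0.38 at 24 h, a call lost in 5 of 12 refits, without DMSO replicate 1 or 3 or entinostat replicate 1 or 2 at 24 h or DMSO replicate 1 at 48 h. At 48 h it fell by 1.01.

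SESN2 (chr1:28259518-28282491), a leucine sensor that restrains mTORC1 and is raised by ATF4 and p53, rose at both times in both of its probe sets. Its intensities were 157, 165 and 156 in DMSO at 24 h and 248, 297 and 281 with entinostat. At 48 h they were 153, 155 and 150 in DMSO and 233, 254 and 250 with entinostat. All treated arrays lay above all controls, and the DMSO arrays hardly varied. SESN2 rose by 0.79 on the log2 scale after 24 h (standard error 0.07, adjusted p = 2.4e-06) and by 0.69 after 48 h (adjusted p = 6.5e-06), and all 12 refits kept both calls. The second probe set rose by 0.71 and 0.48, and all its treated arrays were above its controls as well. The interaction of the brighter one was -0.10 (95% confidence interval -0.30 to 0.11, adjusted p = 0.757).

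DDIT4 (chr10:72273924-72276036), also named REDD1, blocks mTORC1 and is induced by ATF4, by hypoxia and by glucocorticoids. Its intensities were 357, 418 and 488 in DMSO at 24 h and 492, 570 and 595 with entinostat, and 637, 648 and 744 in DMSO at 48 h and 503, 599 and 548 with entinostat. The treated arrays were above the controls at 24 h and below them at 48 h. DDIT4 rose by 0.40 on the log2 scale after 24 h (standard error 0.11, adjusted p = 0.021) and had -0.30 after 48 h (adjusted p = 0.0779). The call at 24 h was lost in 4 of 12 refits, without DMSO replicate 1 or 2 or entinostat replicate 2 or 3 of that time. The call at 48 h was gained in 2 refits (without DMSO replicate 1 or 3 at 24 h) and in 4 other settings. The interaction was -0.70 (adjusted p = 0.0623). In DMSO, DDIT4 was higher at 48 h than at 24 h by 0.69 on the log2 scale (adjusted p = 0.0314), where 0.359% of all probe sets passed, and no other of the 17 did. The count over all probe sets, 196, fell to 1 without DMSO replicate 3 at 48 h and rose to 344 without DMSO replicate 3 at 24 h, and separate fits called 0. That call held in 5 of 12 refits and was lost in 7, in all those without a DMSO array but that of replicate 3 at 24 h and in those without entinostat replicate 2 at 24 h or replicate 3 at 48 h. In entinostat the change between the times was -0.0047 (adjusted p = 0.992).

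Among 12 genes that restrain mTORC1 or sense amino acids, 3 rose and 2 fell after 24 h, and 3 rose and 4 fell after 48 h. SESN3, the relative of SESN2, rose by 1.59 and 1.61, from 180, 252 and 157 in DMSO to 677, 585 and 486 with entinostat at 24 h and from 189, 143 and 164 to 485, 625 and 419 at 48 h. DDIT4L, the relative of DDIT4, fell by 0.59 and 0.37. SAR1B, a small GTPase that senses leucine, rose by 0.40 and 0.56 in its brightest probe set. Some of its dimmer probe sets were called higher at both times (0.53 and 0.69, and 0.25 and 0.45). Others were called at neither, with 0.26 and 0.27, and with 0.14 and -0.0015. TSC2, a subunit of the complex that turns mTORC1 off, fell by 0.24 (lost in 4 of 12 refits, without DMSO replicate 1 or 2 or entinostat replicate 1 or 2 at 24 h) and 0.46. A dimmer probe set of TSC2 went the other way at 24 h, with 0.22 (adjusted p = 0.0192). Of 13 hypoxia targets, which share DDIT4 with the ATF4 pathway, 4 rose and 5 fell after 24 h, and 4 rose and 6 fell after 48 h. ADM, a vasodilating peptide, rose by 1.15 and 1.16, and EGLN3, an oxygen-sensing hydroxylase, by 0.78 and 0.88. PDK1, a kinase that holds back pyruvate oxidation, fell by 0.49 and 0.95, and VEGFA, the vascular growth factor, fell by 0.51 (lost in 2 of 12 refits, without DMSO replicate 2 or entinostat replicate 2 at 24 h) and 0.86.

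XBP1 (chr22:28794560-28800569), the transcription factor whose mRNA is spliced by IRE1, was the only one of the 10 genes that fell. Its intensities were 527, 528 and 531 in DMSO at 24 h and 389, 397 and 454 with entinostat, and at 48 h 595, 581 and 604 in DMSO against 377, 359 and 405. All treated arrays were below all controls at both times. In log2 fold change this was -0.36 after 24 h (standard error 0.06, adjusted p = 0.00115) and -0.64 after 48 h (adjusted p = 9.92e-06), and all 12 refits kept both calls. The interaction was -0.28 (adjusted p = 0.188). The second probe set of XBP1 had intensities from 54.1 to 67.5 and no call at either time.

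Of the sensors and activators of the IRE1 and ATF6 arms, 11 were measured, and 4 rose and 3 fell after 24 h, 2 and 2 after 48 h. ERN1, which encodes IRE1 itself, rose by 0.72 and 0.97 while the mRNA of XBP1 fell. Its intensities were 437, 368 and 429 in DMSO at 24 h against 709, 693 and 632 with entinostat, and at 48 h 499, 459 and 517 against 850, 1024 and 1032. One of the other 2 probe sets of ERN1 was called at 48 h alone (0.74), and the dimmest at neither time. ATF6 had no call in any of its 4 probe sets, with -0.06 at both times in the brightest. ATF6B, its relative, fell by 0.42 at 24 h and by 0.26 at 48 h, where the call was lost without DMSO replicate 2 or entinostat replicate 3 of that time. The dimmer probe sets of ATF6B were called lower at 24 h (-0.23 and -0.29) but not at 48 h (-0.12 and -0.16). MBTPS1, the protease that cleaves ATF6, rose by 0.29 and 0.23 in its brightest probe set, while its other one had 0.01 and 0.13 without a call. CREB3L4, a membrane-bound relative of ATF6, fell by 0.41 and 0.63.

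HERPUD1 (chr16:56932142-56944864), a membrane protein of ER-associated degradation that all arms of the response can raise, rose at 24 h. Its intensities were 1158, 1171 and 1028 in DMSO at 24 h and 1371, 1612 and 1456 with entinostat. At 48 h they were 1278, 1276 and 1195 in DMSO and 1399, 1199 and 1517 with entinostat, and the groups overlapped. HERPUD1 rose by 0.40 on the log2 scale after 24 h (standard error 0.09, adjusted p = 0.00485), which all 12 refits kept, and had 0.13 after 48 h (adjusted p = 0.366). The interaction of -0.27 did not pass (adjusted p = 0.397). Its other probe set lay between 62.6 and 76.5 on all arrays and had -0.01 and -0.10 without a call. Of the 4 genes with the core TGATGNAA in a window, ASNS, ATF3 and HERPUD1 were called higher at 24 h and CHAC1 was not called, while ATF4, SESN2 and DDIT4, without the core, were called higher at 24 h as well. The plot of fold changes sets all 17 probe sets side by side.

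**Figure D3:**
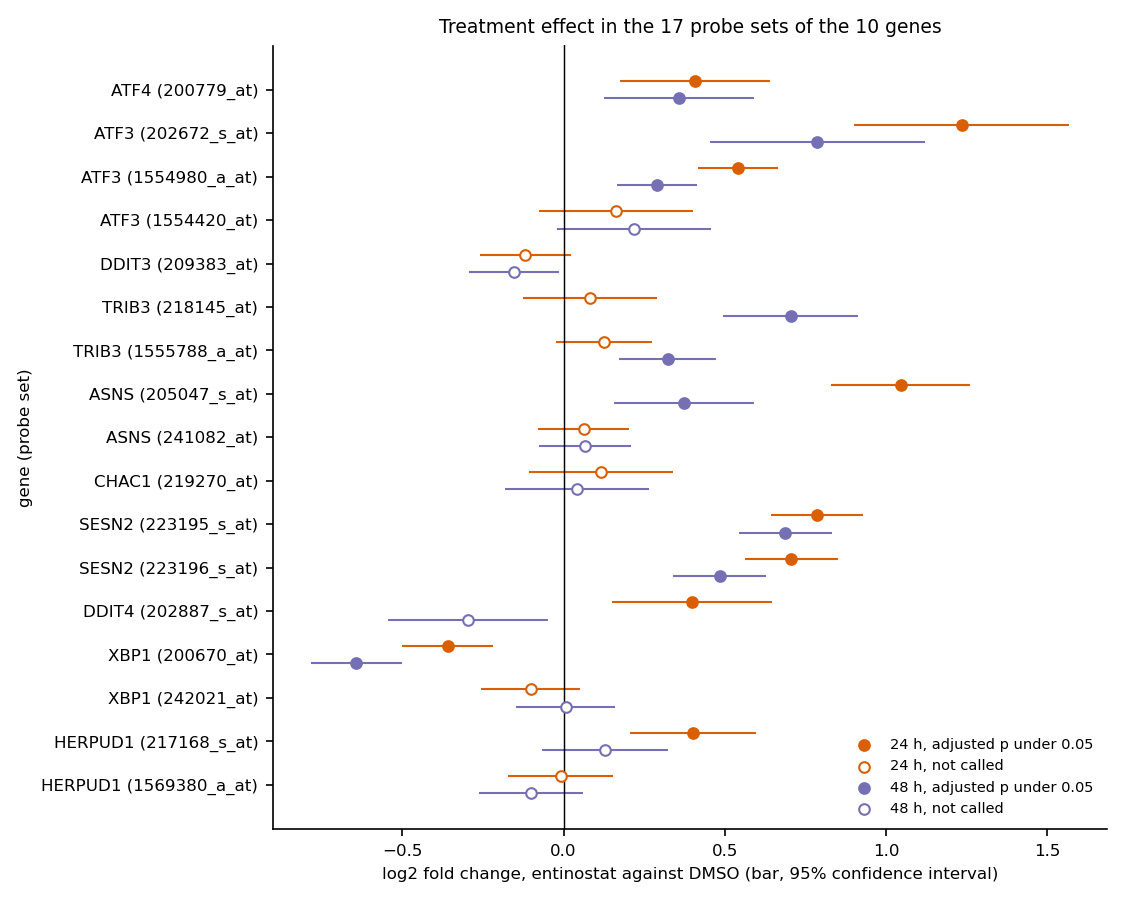
Log2 fold change of entinostat against DMSO at 24 h and 48 h for the 17 probe sets of the 10 genes; bars are 95% confidence intervals and filled points had an adjusted p under 0.05 from limma. ATF3, ASNS and SESN2 lie farthest to the right at 24 h, XBP1 is the only gene with filled points left of 0, and ASNS, TRIB3 and DDIT4 differ most between the times.

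ER chaperones and foldases changed in both directions. Of 22 measured, 5 rose and 3 fell after 24 h, and 2 rose and 6 fell after 48 h. HSPA5 (BiP), the chaperone most often used to read the unfolded protein response, had -0.12 after 24 h (adjusted p = 0.347) and -0.21 after 48 h (adjusted p = 0.0734). Its intensities were 3229, 3240 and 3064 in DMSO at 24 h against 2876, 3163 and 2763 with entinostat, and 3286, 2694 and 3186 against 2557, 2555 and 2790 at 48 h. Its second probe set rose at 24 h (0.31, adjusted p = 0.00408) and had -0.03 at 48 h, so the probe sets of HSPA5 disagree. HSP90B1, the ER form of HSP90, fell by 0.18 at 24 h (lost in 10 of 12 refits, all but those without DMSO replicate 2 or entinostat replicate 3 at 24 h, and in 6 other settings) and by 0.59 at 48 h. Its other probe set fell by 0.34 and 0.36, called at both times. CRELD2 fell by 0.40 and 0.72. The ER stress element of its promoter window is also in those of XBP1, HSPA5, HSP90B1, ERO1B, CALR, CANX, PDIA6 and SERP1. SDF2L1, a partner of BiP, rose by 0.71 at both times. ERO1B, an oxidase of disulfide formation, has the element and rose by 0.75 and 0.52, so genes with it moved in both directions. The other probe set of ERO1B had 0.40 and 0.02 without a call. DNAJB9, a BiP cochaperone and XBP1 target, rose by 0.37 at 24 h in its brightest probe set, with 0.24 at 48 h (adjusted p = 0.0724). Its dimmer probe sets were called at neither time, with 0.26 (adjusted p = 0.061) and 0.12 (adjusted p = 0.346) at 24 h.

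Of 22 measured genes of ER-associated degradation, 6 rose and 4 fell after 24 h, and 7 rose and 2 fell after 48 h. EDEM2, which starts the mannose trimming that marks proteins for removal, rose by 1.01 and 1.21, from 170, 183 and 162 in DMSO to 393, 336 and 313 with entinostat at 24 h and from 159, 158 and 156 to 395, 334 and 364 at 48 h. SELENOK, a selenoprotein of the retrotranslocation complex, rose by 0.50 and 0.40. DERL2, a channel protein of that complex, fell by 0.45 and 0.48, and HERPUD2, the relative of HERPUD1, had -0.13 at 24 h without a call and fell by 0.34 at 48 h. The dimmer probe sets of HERPUD2 were called at neither time, with -0.26 and -0.25 at 48 h.

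Over the 10 pathway lists, 153 genes had a probe set of their own. After 24 h 47 of them rose (30.7%) and 29 fell (19.0%), where 18.2% of all genes rose and 15.0% fell. After 48 h 41 rose (26.8%) and 35 fell (22.9%), where 17.3% of all genes rose and 16.6% fell. The medians of the lists ran from -0.01 to 0.32 at 24 h and from -0.18 to 0.25 at 48 h on the log2 scale. At 24 h all 10 lay above the -0.02 of all genes, and at 48 h they lay on both sides of it. The lists were chosen with earlier results of these data known, so their counts are a description. The interaction was called for 7 of the 153, named here after their values were seen: SLC1A4, PDIA4, P4HB, HSP90B1, NPRL2, BNIP3L and EIF2B3. All 7 had a lower fold change at 48 h than at 24 h, and 3 of them, PDIA4, P4HB and HSP90B1, are ER foldases or chaperones. The other probe set of HSP90B1 had an interaction of -0.02 (adjusted p = 0.971). Over all genes 1.92% had a called interaction. Shares over all genes take in dim genes, and the lists were not compared with genes of like brightness. Of the 17993 probe sets with a mean log2 of at least 7, tested on their own, 4666 rose and 5131 fell at 24 h. At 48 h 4668 rose and 5539 fell, and the interaction was called higher for 446 and lower for 590.

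**Figure D4:**
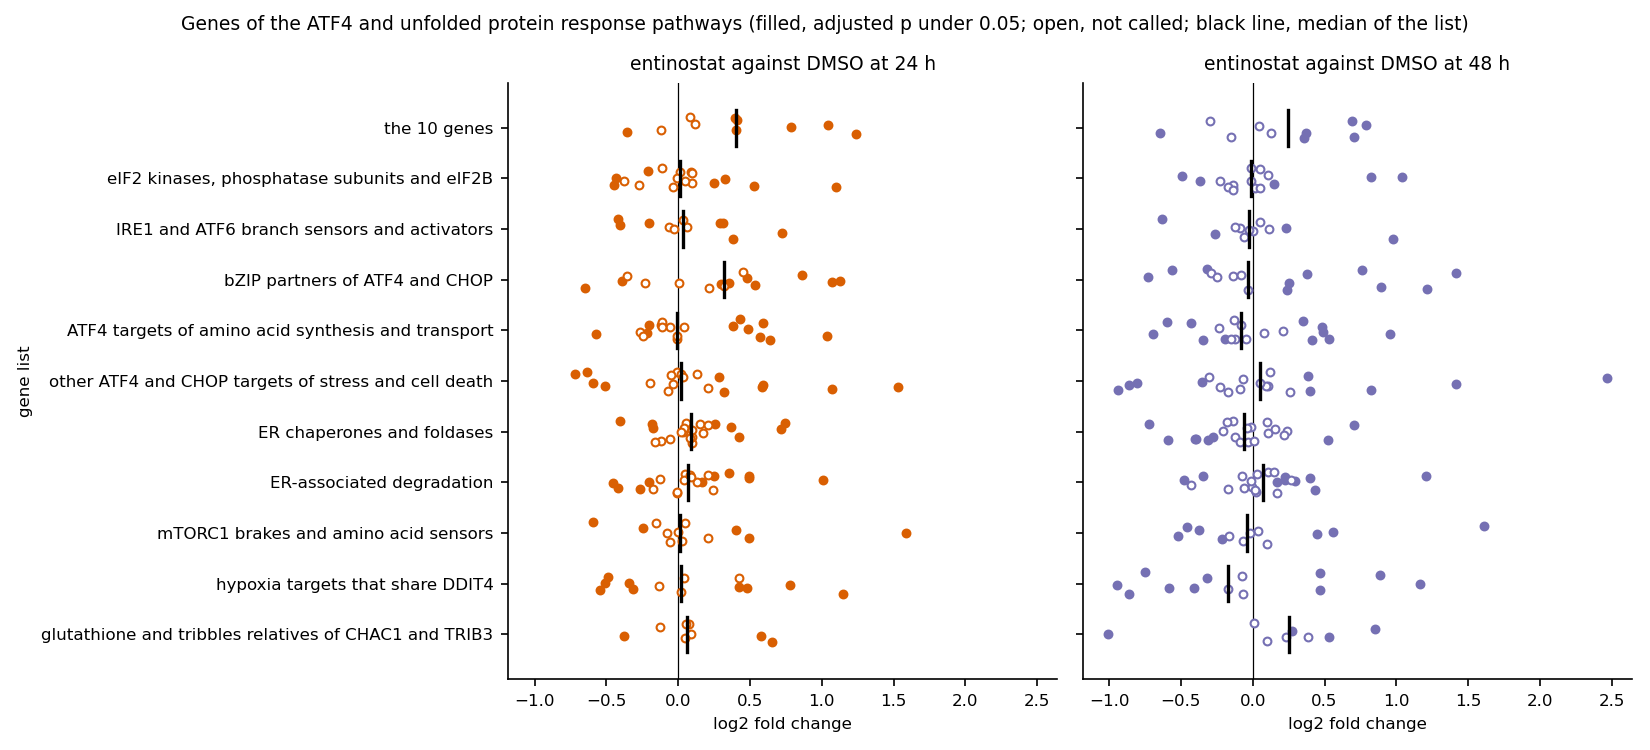
Log2 fold change of entinostat against DMSO for each gene of the lists at 24 h (left) and 48 h (right); a point is a gene by its probe set of the highest mean, filled points had an adjusted p under 0.05 and black lines are medians. The 10 genes have a median of 0.40 at 24 h and 0.24 at 48 h, and the other lists hold filled points on both sides of 0.

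Between the entinostat groups, 2 of the 17 probe sets changed from 24 h to 48 h, ASNS, which was lower, and TRIB3, which was higher, beside 7.19% of all probe sets. Of the 17993 with a mean log2 of at least 7, tested on their own, 1857 were higher and 2258 lower. The plot of the effect at both times places ASNS and DDIT4 below the line of equal change and TRIB3 above it.

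**Figure D5:**
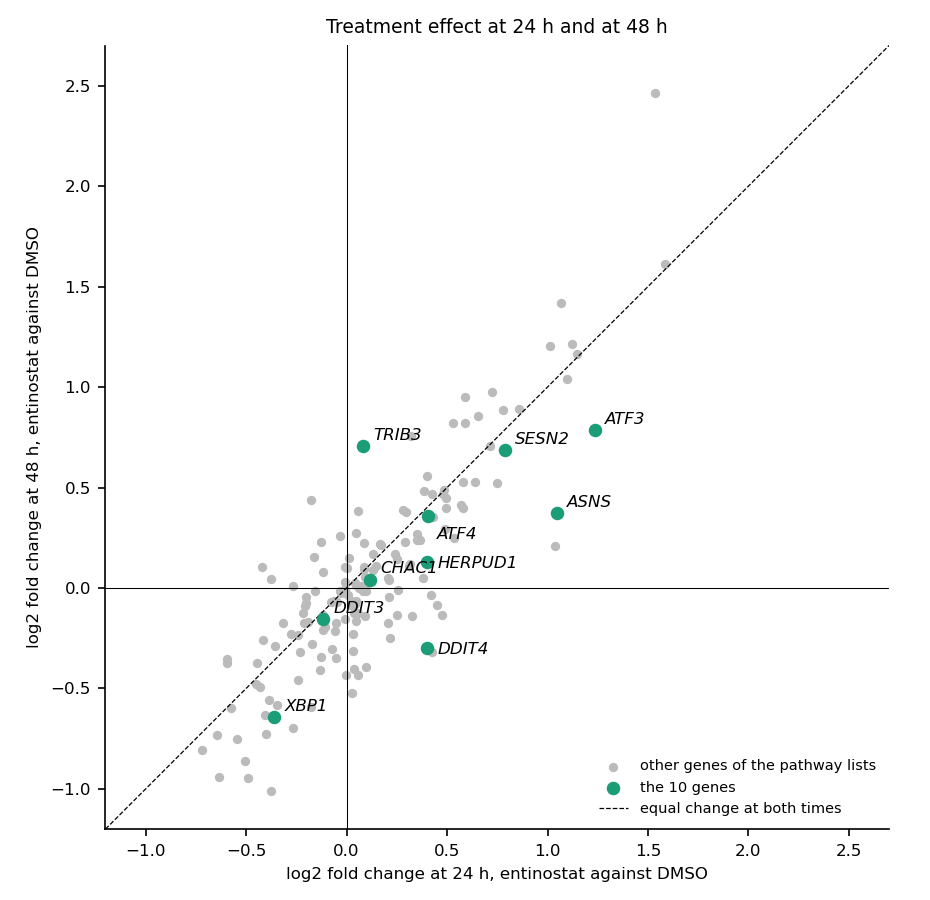
Log2 fold change of entinostat against DMSO at 48 h (vertical) against that at 24 h (horizontal) for the 10 genes (green, named) and the other genes of the pathway lists (grey); the dashed line marks equal change. ASNS lies at 1.05 and 0.37, TRIB3 at 0.08 and 0.70 and DDIT4 at 0.40 and -0.30.

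For each of the 10 genes, the genes whose log2 values over the 12 arrays were most like it were listed by Pearson's r, as a description, since the arrays fall into treatment groups. SESN2 was followed by ORMDL2 (r = 0.993), DLST (0.992) and MGARP (0.992), and XBP1 by NDUFB11 (0.990), ZNF629 (0.984) and MRPL48 (0.981). ATF3 was closest to TSG101 (0.979), ATF4 to TAF1B (0.975) and ASNS to RPAP3 (0.972). DDIT4 was closest to IRS2 (0.967), TRIB3 to ARRDC3-AS1 (0.949), DDIT3 to GRK2 (0.942) and HERPUD1 to HMCES (0.933). The weakest was CHAC1, whose nearest gene was GH2 (0.850). None of these nearest genes was a member of the 10.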

How the data were processed

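Per the labels and the study's methods, HD-MB03 RNA was hybridized to U133 Plus 2.0 arrays, and the authors normalized the CEL files with GCRMA (version not given in the sources used here) and took log2. As deposited, the values are linear intensities with a background level left in, so log2 was taken here and they may be another export. Without the 62 control probe sets, 54613 remained for the tests. Of these 41091 carry 1 gene symbol in GEO's platform annotation, 1801 several and 11721 none. 2 cells were empty, and those probe sets were fitted on the other arrays. limma 3.58.1 (R 4.3.3) was fitted to the 12 arrays with 1 coefficient per group. Contrasts were entinostat against DMSO at each time, their interaction, and 48 h against 24 h within each treatment. P-values were adjusted over the whole array by Benjamini-Hochberg, and an adjusted p under 0.05 was a call. A gene is represented by its probe set of the highest mean log2 over all arrays, where the study's methods took the strongest effect. Probe sets ending in _x_at or _s_at can bind several transcripts. The number of arrays limits the precision, and p-values measure the spread between biological replicates of 1 cell line. Members and lists were chosen with earlier results of these data known. Named beside the 10 genes are the 2 largest rises and 2 largest falls of each list and the kinases, sensors and chaperones at the start of each arm. Promoter windows are from RefSeq (GRCh38.p14). Alternatives were filters on dim probe sets, other scalings and background corrections, another prior, separate fits, a replicate block, other thresholds and probe sets, and leaving out each array. The procedure was tested on simulated data. No value was taken from the study's own gene tables.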

Additional observations from a re-analysis of the deposited data

Results flagged for a closer look

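The treatment effect differed between 24 h and 48 h, by the interaction term of limma, for 1 of the 10 genes and 7 of the 153 pathway genes. Over all 19775 genes it was called for 1.92%, 157 of them higher and 223 lower. Among the 10 it was ASNS, with an interaction of -0.67 on the log2 scale (adjusted p = 0.0431). Among the other pathway genes it was SLC1A4 with -0.83, BNIP3L with -0.74, NPRL2 with -0.55, PDIA4 with -0.46, P4HB with -0.44, HSP90B1 with -0.41 and EIF2B3 with -0.39. SLC1A4 and PDIA4 each lost the call in 1 of 12 refits that left out 1 array, P4HB and BNIP3L in 6, NPRL2 in 9, ASNS and HSP90B1 in 11 and EIF2B3 in 12. Of the 4 other probe sets of SLC1A4, 1 had a called interaction (adjusted p = 0.0104) and 3 did not (0.119, 0.198 and 0.984), and the other probe set of HSP90B1 had -0.02 (adjusted p = 0.971). BNIP3L, a mitophagy receptor, was the only one of these called in opposite directions, with 0.43 at 24 h and -0.32 at 48 h.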

How the results depend on the processing

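With only probe sets of a mean log2 of at least 8, 6 of the 17 were left and 5 were called at 24 h and 5 at 48 h. Over the array 11128 were left, of which 6379 and 6650 were called, a larger share than without the filter. The interaction was called for 0 of the 17 at an adjusted p under 0.01 or with 30 subtracted, for 3 with filters at a log2 of 7 or 8 and for 2 under quantile normalization, normexp, adjustment over single-symbol probe sets or the replicate block. Over the array it was called for 116 probe sets at 0.01, 1036 with the filter at 7 and 138 with 30 subtracted. With the filter at 8 it was called higher for 359 and lower for 488 of 11128. Quantile normalization had 320 higher and 347 lower, and normexp 354 and 419. Adjustment over the 41091 single-symbol probe sets had 337 and 398, and the replicate block 333 and 389. At an unadjusted p under 0.05 limma counted 6 interactions, and 5 with 30 subtracted. The change in DMSO was called for 0 at 0.01, with 30 subtracted and in separate fits (4, 3 and 5 at an unadjusted p under 0.05), and that in entinostat for 1 at 0.01 and 4 with the replicate block. For DMSO the array had 6 higher and 4 lower at 0.01, 19 and 7 with 30 subtracted and 0 in separate fits. For entinostat it had 709 higher and 845 lower at 0.01, and 1934 and 2296 with the replicate block. With each array left out in turn, the 17 gave 7 to 9 calls at 24 h, 8 to 10 at 48 h, 0 to 1 for the interaction, 0 to 1 in DMSO and 1 to 4 in entinostat, and the array 11615 to 13961, 12363 to 14246, 210 to 502, 1 to 344 and 2360 to 3967. The value of HERPUD1 at 24 h turned to -0.0092 (adjusted p = 0.954) once probe sets that end in _x_at or _s_at were dropped, which also ended both calls of ASNS (0.06 and 0.07). The probe sets then left were dim, with a mean log2 of 6.10 for HERPUD1 and 5.63 for ASNS, against 10.34 and 10.96 for those dropped. The causes were not tested. Same-numbered replicates had deviations that correlated between -0.06 and 0.20, and the numbers were not taken to pair arrays. Arrays of different numbers were not compared in this way, so the range does not settle whether the replicates are paired. Among the treatment effects of the 10 genes, the block changed the call of DDIT4 at 48 h (adjusted p = 0.0131). Interactions were not run in separate fits. Without _x_at and _s_at probe sets, ATF3 is represented by another probe set, and SESN2 and DDIT4 have no value.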
